A study of Mus musculus with 96 samples.

Results

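The core circadian clock genes were 10 genes of the 54146 Ensembl genes in the count table, namely Arntl, Clock, Per1, Per2, Per3, Cry1, Cry2, Nr1d1, Nr1d2 and Dbp. They were taken by gene name, by a rule that uses no measured value, although the list was drawn up with earlier results of these data known, and followed through the 88 samples treated for 10 hr out of 96 in the series. All 10 passed the filter on low counts in every model fitted. The remaining 8 samples, treated for 48 hr, were not used here.

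The study asked how inhibitors of the mitochondrial respiratory chain change gene expression in mouse C2C12 cells, a line of muscle precursor cells. These divided as myoblasts in 10% dialyzed fetal bovine serum and fused into myotubes in 2% dialyzed horse serum. Per the study's methods, cells meant for differentiation were first grown in a higher share of fetal bovine serum than the myoblast lines. Piericidin (0.5 µM) blocks complex I, antimycin (0.5 µM) blocks complex III, oligomycin (1 µM) blocks ATP synthase, BAM15 (0.5 µM) uncouples respiration from ATP synthesis, and DMSO was the vehicle of every control. The myoblasts were stable lentiviral lines with a doxycycline-inducible transgene, and all of them, the DMSO controls included, received 300 ng/ml doxycycline. The control line carried luciferase, the LbNOX line a bacterial water-forming NADH oxidase in the cytosol, the mitoLbNOX line the same enzyme in the mitochondrial matrix, and the NDI1 line a yeast NADH dehydrogenase that piericidin does not block. There were 3 samples for each of DMSO, piericidin, antimycin and oligomycin in the luciferase and LbNOX lines, 3 for each of DMSO, piericidin and antimycin in the mitoLbNOX line, and 2 for each of DMSO and piericidin in the NDI1 line. Untransduced myotubes, after 4 days in low serum, formed 9 groups of 3 samples: DMSO, piericidin, antimycin, oligomycin, BAM15, oligomycin with piericidin, oligomycin with BAM15, and DMSO or oligomycin at 5% oxygen. The cells of the 5% oxygen groups had been moved to low oxygen on the evening before treatment and stayed there, so their exposure to low oxygen was longer than that to the drug. Myotubes transduced with adenovirus received DMSO, piericidin or oligomycin and expressed either eGFP (2 samples per treatment) or eGFP with LbNOX (3 per treatment). Post-mitotic cells after 1 day in low serum, called day 1 cells here, received DMSO, piericidin or oligomycin (3 samples each). The kind and share of serum, time in culture, transgene and doxycycline, which only the myoblasts received, all differ between the myoblasts and the other states. Their parts in a difference between states cannot be told apart.

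The total count per sample ran from 6458295 to 14960910, and replicates of a group correlated with Pearson r of 0.975 to 0.990 across genes on the log2 scale. Every transgene was found in its own lines, with at least 372 counts, and the transgenes that a line did not carry summed to 0 counts. The reference sequences listed in the study's methods include none specific to mitoLbNOX. These counts therefore do not tell the LbNOX and mitoLbNOX lines apart. Myog, the myogenic factor that marks differentiating muscle, had a median of 0.413 CPM (counts scaled to the library size) in myoblasts and 749 CPM in untransduced myotubes. The myoblast markers Myf5 and Pax7 had no higher median in myoblasts. Their medians were 9.35 and 2.03 CPM in myoblasts, 22.7 and 12.2 CPM in day 1 cells and 13.9 and 4.84 CPM in untransduced myotubes. Within the myoblast samples Myf5 ran from 4.75 to 134 CPM. Among markers of other cell types, Adipoq, of fat cells, did not exceed 0.138 CPM in any sample. Pecam1, also chosen as such a marker, was found in every sample, at 0.442 to 3.53 CPM. Nothing in the labels says that replicates came from separate cultures, so p-values measure the spread between these samples, which may be technical. In such bulk samples, fewer cells expressing a gene and less RNA of that gene per cell cannot be told apart.

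The mammalian clock is a feedback loop of transcription. BMAL1, the product of Arntl, pairs with CLOCK and activates genes through E-boxes, among them the Per and Cry genes, whose proteins then repress BMAL1 and CLOCK. In a further loop, the nuclear receptors REV-ERBα (Nr1d1) and REV-ERBβ (Nr1d2), themselves E-box targets, repress Arntl through elements that they share with the activating ROR receptors. Dbp is an E-box target that acts on D-boxes. In muscle the clock drives daily rhythms of metabolic genes, and in cultured cells a change of medium or serum can set its phase. Medium was replaced at the start of treatment in all groups, and each group was sampled at 1 time, so a shift in clock phase and a change in level cannot be told apart. The time of day at harvest is not given in the sources used here.

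Promoter windows from 250 bases before to 50 bases after a start site (RefSeq, GRCm38.p6) matched 9 of the 10 genes, with 13 windows in all. Per2 had none. They are shown for Arntl and Cry2, which rose with all 3 inhibitors in luciferase myoblasts, Per3, which fell, and Nr1d1, which moved in opposite directions with piericidin and antimycin. Capitals mark the letters matched on either strand. They are AGGTCA, the core bound by ROR and REV-ERB receptors, in Arntl, the E-box variant CACGTT in Cry2 and Nr1d1, read there from the other strand as AACGTG, and the D-box TTATGTAA in Per3.

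Arntl, chr7:113207261-113207560, plus strand: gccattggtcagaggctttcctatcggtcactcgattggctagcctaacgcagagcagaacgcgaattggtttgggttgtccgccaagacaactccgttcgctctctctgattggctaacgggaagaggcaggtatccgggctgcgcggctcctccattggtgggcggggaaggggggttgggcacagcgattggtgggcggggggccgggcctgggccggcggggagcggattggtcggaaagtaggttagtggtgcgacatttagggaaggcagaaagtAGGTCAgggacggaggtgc

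Cry2, chr2:92434020-92434319, minus strand: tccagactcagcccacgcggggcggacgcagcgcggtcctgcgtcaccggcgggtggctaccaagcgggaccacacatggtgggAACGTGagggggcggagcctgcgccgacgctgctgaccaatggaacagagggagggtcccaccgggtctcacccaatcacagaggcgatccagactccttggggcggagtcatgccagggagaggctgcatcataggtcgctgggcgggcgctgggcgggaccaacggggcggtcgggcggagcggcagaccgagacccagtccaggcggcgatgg

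Per3, chr4:151044616-151044915, minus strand: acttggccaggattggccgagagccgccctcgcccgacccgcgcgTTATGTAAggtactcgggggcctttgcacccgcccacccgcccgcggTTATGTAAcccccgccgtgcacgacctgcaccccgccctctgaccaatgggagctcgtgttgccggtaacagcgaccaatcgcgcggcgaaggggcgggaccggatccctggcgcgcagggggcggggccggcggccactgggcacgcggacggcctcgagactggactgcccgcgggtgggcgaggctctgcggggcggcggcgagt

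Nr1d1, chr11:98775328-98775627, minus strand: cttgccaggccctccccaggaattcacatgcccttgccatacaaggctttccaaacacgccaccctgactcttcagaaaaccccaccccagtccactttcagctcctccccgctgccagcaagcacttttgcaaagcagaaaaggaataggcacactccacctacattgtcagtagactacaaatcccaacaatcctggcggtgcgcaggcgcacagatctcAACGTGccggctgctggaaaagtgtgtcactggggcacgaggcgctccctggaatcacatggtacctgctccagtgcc

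Counted from 0 at the start site, the AGGTCA match of Arntl began at 31. The CACGTT matches began at -166 in Cry2 and at -28 in Nr1d1. Both TTATGTAA matches lay upstream of the Per3 start, beginning at -205 and at -158. Among all 32851 windows, 16.3% held AGGTCA, 4.68% held CACGTT and 0.938% held TTATGTAA. The E-box CACGTG was found in 7.15% of all windows and in 2 of the 13 windows of the clock genes, at -60 in Cry1 and at -166 in Per1. CACGTT was in 3 of the 13, the third being Cry1, and AGGTCA in 4, those of Arntl, Clock, Per1 and Nr1d2. The cAMP response element TGACGTCA (1.79% of all windows) and the element TGATGNAA bound by ATF4 and CEBP factors (3.97%) were in none of the 13 windows. A match is a description of these letters only.

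With DMSO, levels were compared between genes as CPM per kb of exon. Nr1d1 was highest in luciferase myoblasts, at 7.93 CPM per kb, followed by Nr1d2 at 6.85. The activator gene Clock stood at 3.94 CPM per kb and its partner Arntl at 1.75. Among the repressors, Cry1 was at 3.98, Per1 at 1.79, Cry2 at 1.13, Per2 at 0.820 and Per3 at 0.622 CPM per kb. Dbp was at 0.923 CPM per kb. Over all 88 samples, treated ones included, Dbp gave few reads, between 2 and 98 counts per sample. The lowest count of any other clock gene in those samples was 6, for Per3.

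**Figure D1:**
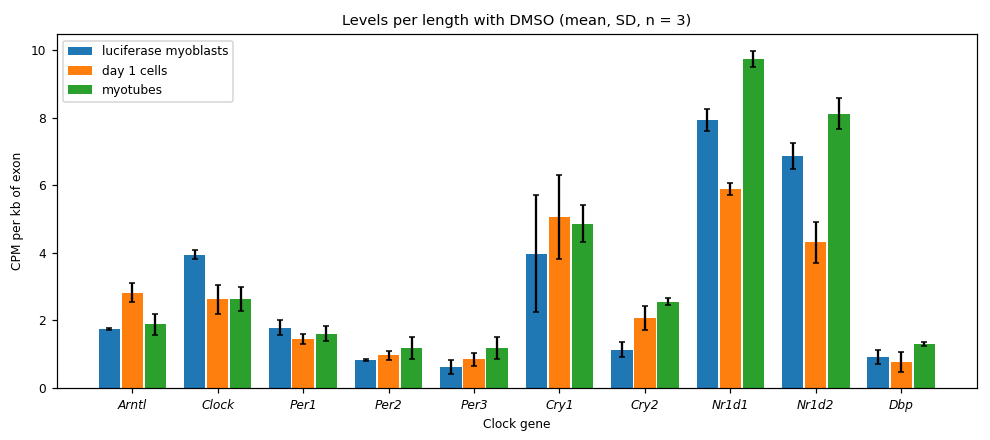
Mean level of each clock gene with DMSO (vertical axis, CPM per kb of exon) in luciferase myoblasts, day 1 cells and myotubes, with the SD of 3 samples as the bar. Nr1d1 and Nr1d2 were the highest in myoblasts and myotubes, and Cry2 was lowest in myoblasts, at 1.13 CPM per kb against 2.06 in day 1 cells and 2.56 in myotubes.

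Between states, 5 of the 10 clock genes differed between myotubes and luciferase myoblasts, where 69.4% of all genes tested did (adjusted p under 0.05, edgeR quasi-likelihood test, which is what called means throughout). Cry2 measured 6.22, 6.50 and 8.73 CPM in the myoblast samples, 10.5, 14 and 14.7 CPM in day 1 cells and 15.3, 16.5 and 16.6 CPM in myotubes. None of these groups overlapped, and the log2 difference of myotubes from myoblasts was 1.23 ± 0.14 (SE). Clock fell by 0.54 ± 0.09 on the log2 scale, while Per3 rose by 0.96 ± 0.26, Per2 by 0.57 ± 0.23 and Nr1d1 by 0.34 ± 0.13. The Per3, Per2 and Nr1d1 calls were each lost when 1 replicate number was left out, with values down to 0.62, 0.33 and 0.33. Day 1 cells against luciferase myoblasts gave 5 of 10 called, beside 63.6% of all genes. Arntl (log2 difference 0.69 ± 0.12) and Cry2 (0.87 ± 0.15) were higher in day 1 cells. Clock (-0.58 ± 0.09), Nr1d2 (-0.66 ± 0.14) and Nr1d1 (-0.43 ± 0.13, not called without replicate 2, -0.33, or without replicate 3, -0.40) were lower. Myotubes against day 1 cells gave 4 of 10, beside 35.6% of all genes. Nr1d2 (0.94 ± 0.14) and Nr1d1 (0.76 ± 0.13) rose between day 1 and myotubes and Arntl fell by 0.54 ± 0.13. The Arntl call was lost without replicate 1 (-0.39), and that of Cry2 (0.35 ± 0.14) without any replicate number (0.15 to 0.43). All 3 DMSO samples of luciferase myoblasts and of day 1 cells, and 0 of 3 in myotubes, carried a label code read below as an outer well. An outer well covariate, estimated from groups holding both kinds of well, left 5 genes called for myotubes against myoblasts and 4 for myotubes against day 1 cells.

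In luciferase myoblasts, all 3 inhibitors raised Arntl, Clock and Cry2 and lowered Per3, and piericidin and antimycin moved Nr1d1 in opposite directions. Piericidin changed 9 of the 10 clock genes (61.7% of all genes tested were called), antimycin 9 of 10 (63.2% of all genes) and oligomycin 7 of 10 (50.8% of all genes). The calls of these comparisons rest on the same 3 DMSO samples. So many genes changed here that the counts alone set the clock genes little apart, and the sizes are given below. The median log2 change of the 10 genes was 0.39 with piericidin, 1.08 with antimycin and 0.30 with oligomycin, beside medians of all genes from -0.0148 to -0.00368.

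**Figure D2:**
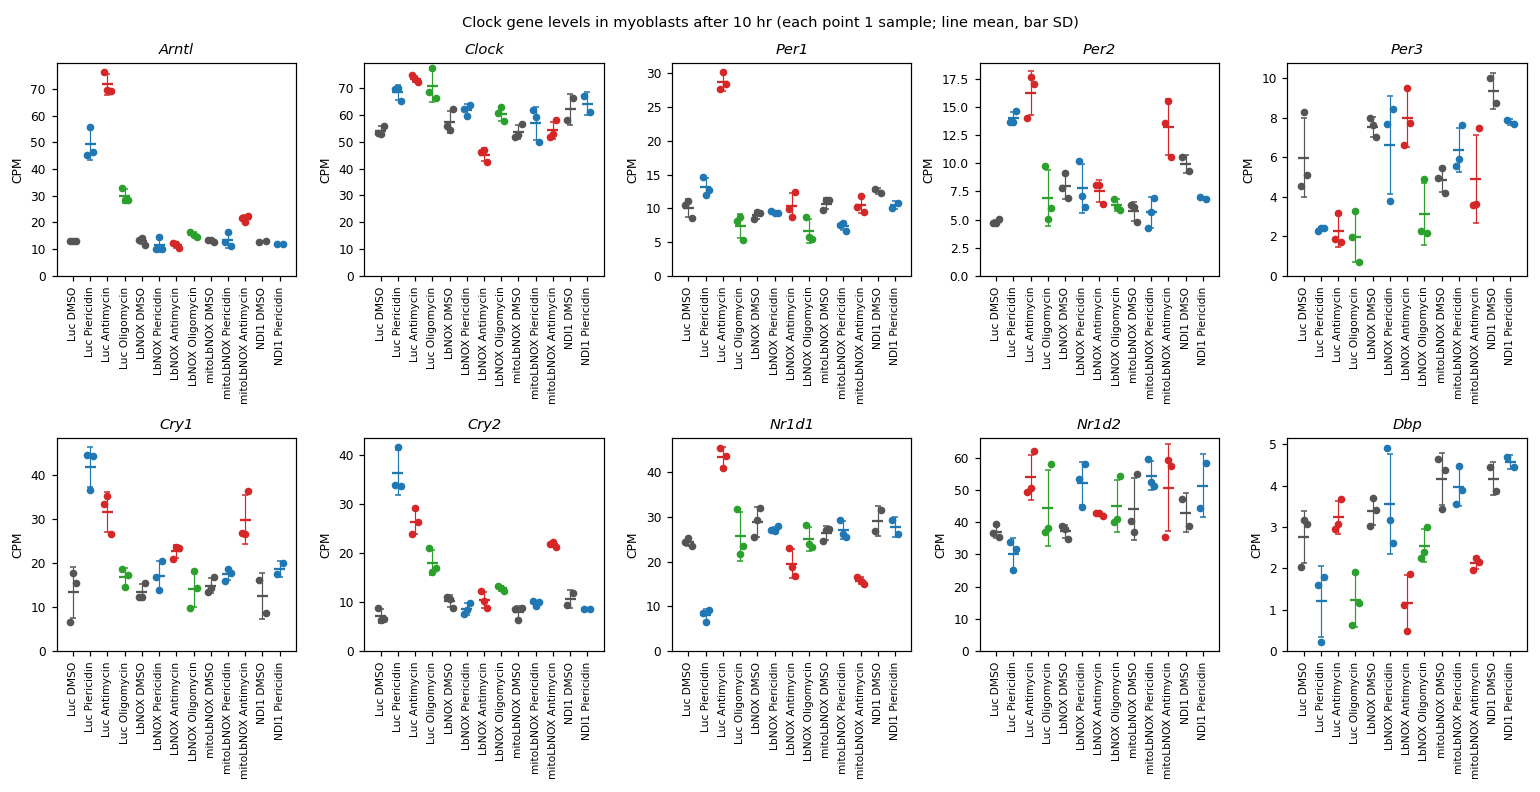
Level of the 10 clock genes (vertical axes, CPM) in each myoblast sample, by line and treatment along the horizontal axes, with a line at the group mean and a bar for the SD. Arntl and Cry2 stood above DMSO with all 3 inhibitors in luciferase cells, and Nr1d1 went from a mean of 24.4 CPM to 7.99 with piericidin and 43.4 with antimycin.

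Arntl, which encodes BMAL1, measured 13, 13.2 and 13.2 CPM in the DMSO samples. It reached 45.4, 46.5 and 55.9 CPM with piericidin, 69.4, 69.8 and 76.4 CPM with antimycin and 28.3, 28.6 and 33 CPM with oligomycin. The 4 groups did not overlap. These were rises of 3.84-fold (log2 1.94 ± 0.12, adjusted p = 4e-15), 5.64-fold (2.5 ± 0.12) and 2.30-fold (1.20 ± 0.12). A change as large as that of Arntl was seen in 5.54% of all genes tested with piericidin, 2.90% with antimycin and 9.51% with oligomycin. Antimycin exceeded piericidin by 0.55 ± 0.11 on the log2 scale. Clock, the gene of the partner protein, rose far less, by 0.37 ± 0.07 with piericidin, 0.49 ± 0.07 with antimycin and 0.41 ± 0.07 with oligomycin on the log2 scale. Its samples ran from 52.8 to 56.1 CPM with DMSO and from 65.3 to 77.7 CPM over the 3 inhibitors, without overlap.

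Cry2, a repressor of BMAL1 and CLOCK, measured 6.22, 6.50 and 8.73 CPM with DMSO, 33.5, 33.7 and 41.5 CPM with piericidin, 23.9, 26.2 and 29.0 CPM with antimycin and 16.1, 16.8 and 20.9 CPM with oligomycin. Again the groups did not overlap. Cry2 rose 5.22-fold with piericidin (log2 2.38 ± 0.14, adjusted p = 5.8e-15), a size reached by 3.12% of all genes, 3.81-fold with antimycin (1.93 ± 0.14) and 2.54-fold with oligomycin (1.35 ± 0.15). Its paralog Cry1 rose 3.19-fold with piericidin (log2 1.67 ± 0.24) and 2.43-fold with antimycin (1.28 ± 0.24). With oligomycin Cry1 measured 14.5, 17.3 and 18.6 CPM, overlapping the DMSO samples at 6.68, 15.5 and 17.7 CPM, and was not called (0.34 ± 0.25).

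The Per genes, the other repressors of the loop, did not move together. Per2 had 4.66, 4.73 and 5.01 CPM with DMSO, 13.6, 13.7 and 14.7 CPM with piericidin and 14, 17.1 and 17.7 CPM with antimycin, rises of 2.98-fold and 3.48-fold (log2 1.58 ± 0.21 and 1.80 ± 0.21). Per1 rose with antimycin from 8.64, 10.5 and 11.1 CPM to 27.6, 28.5 and 30.3 CPM (2.94-fold, log2 1.56 ± 0.15). Per3 went the other way. It fell from 4.55, 5.11 and 8.26 CPM with DMSO to 2.27, 2.42 and 2.43 CPM with piericidin, 1.73, 1.88 and 3.17 CPM with antimycin and 0.691, 1.98 and 3.29 CPM with oligomycin, by 1.30 ± 0.37, 1.37 ± 0.37 and 1.54 ± 0.37 on the log2 scale. Smaller changes of Per1 with piericidin (log2 0.41 ± 0.15) and oligomycin (-0.43 ± 0.16) and of Per2 with oligomycin (0.54 ± 0.21) were called but lost without any 1 of the replicate numbers, where Per1 was at 0.31 to 0.51 and at -0.50 to -0.36, and Per2 at 0.20 to 0.70.

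Nr1d1, the gene of REV-ERBα, a repressor of Arntl, measured 23.4, 24.4 and 25.4 CPM with DMSO. It fell to 6.50, 8.41 and 9.07 CPM with piericidin (log2 -1.57 ± 0.14, adjusted p = 2e-11) and rose to 41.0, 43.7 and 45.5 CPM with antimycin (log2 0.88 ± 0.12). With oligomycin it measured 21.6, 23.5 and 31.8 CPM, overlapping DMSO (0.08 ± 0.12). Nr1d1 was 5.46-fold higher with antimycin than with piericidin (log2 2.45 ± 0.13), and 0.576% of all genes differed as much. Nr1d1 shares 263 exon bases, 8.55% of its exon length, with Thra on the opposite strand, and the libraries did not keep the strand. Thra, a thyroid hormone receptor gene, had a mean of 5.93 CPM with DMSO, 2.49 with piericidin and 4.65 with antimycin. It fell with piericidin by 1.22 on the log2 scale and was not called with antimycin (-0.30), and its part in the Nr1d1 values was not tested. The paralog Nr1d2 changed less. It was not called with piericidin (log2 -0.26 ± 0.19) or oligomycin (0.27 ± 0.18). With antimycin it rose by 0.58 ± 0.18, a call lost without replicate 3 (0.40) and with outer well as a covariate (0.26). Outer wells were read from a code in the labels that has the form of a well position, and the labels do not say whether it marks a plate of cultures, of extracts or of libraries. All 3 DMSO samples of this line and no antimycin sample carried a code at the edge of such a plate.

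Dbp, the D-box activator, was near the limit of the counts. Its samples had 2.04, 3.06 and 3.18 CPM with DMSO, 0.220, 1.59 and 1.79 CPM with piericidin, 0.630, 1.15 and 1.91 CPM with oligomycin and 2.96, 3.06 and 3.69 CPM with antimycin. It fell with piericidin (log2 -1.16 ± 0.41) and oligomycin (-1.14 ± 0.40) and was not called with antimycin (0.26 ± 0.37). The piericidin call was lost without replicate 2 (-0.59), and the oligomycin call without replicate 1 (-0.99) or replicate 3 (-1.05). Dbp shares 539 exon bases, 18.0% of its exon length, with Sphk2, a sphingosine kinase gene on the opposite strand. Sphk2 rose with all 3 inhibitors, by 1.37 with piericidin, 0.62 with oligomycin and 1.14 with antimycin on the log2 scale. Its part in the Dbp values was not tested.

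Compared directly, antimycin and piericidin differed in 6 of the 10 genes (37.2% of all genes). Besides Nr1d1 and Arntl, Per1 (log2 1.14 ± 0.15), Nr1d2 (0.84 ± 0.19) and Dbp (1.42 ± 0.41) were higher with antimycin and Cry2 lower (-0.45 ± 0.13). The Dbp and Cry2 differences were not called without replicate 2 (0.96 and -0.43). The differences in Per2 (0.22, 95% interval -0.15 to 0.60), Per3 (-0.07), Cry1 (-0.39) and Clock (0.11) were not called. Antimycin against oligomycin gave 7 of 10 called (50% of all genes), all higher with antimycin, among them Per1 (1.98 ± 0.16), Dbp (1.41 ± 0.40), Arntl (1.29 ± 0.11) and Per2 (1.26 ± 0.20). Of the 7, Dbp was not called without replicate 1 (1.12) or replicate 3 (1.25), nor Cry2 (0.58 ± 0.13) without replicate 2 (0.40). Piericidin against oligomycin also gave 7 of 10 (39.2% of all genes). Cry1 (1.34 ± 0.24), Per2 (1.04 ± 0.20) and Cry2 (1.04 ± 0.13) were higher with piericidin, as were Per1 (0.84 ± 0.16) and Arntl (0.74 ± 0.11). Nr1d1 was lower (-1.66 ± 0.14), and so was Nr1d2 (-0.53 ± 0.19), whose call was lost without replicate 2 (-0.53) or replicate 3 (-0.34). Other gene groups moved in the same cells. The integrated stress response genes Atf3, Ddit3, Chac1 and Trib3 rose with each of the 3 inhibitors (4 of 4), with Atf3 up by 7.33, 8.42 and 5.94 on the log2 scale with piericidin, antimycin and oligomycin. The proliferation marker Mki67 fell by 0.79, 1.07 and 1.00. The part of these in the clock gene values was not tested.

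The transgene lines asked whether moving electrons from NADH by another route changes the response. In the absence of an inhibitor, against the luciferase line, 0 of 10 clock genes were called in LbNOX cells (2.68% of all genes), 0 of 10 in mitoLbNOX cells (1.77%) and 2 of 10 in NDI1 cells (4.61%). By an unadjusted p under 0.05 these counts were 2, 0 and 3, and by DESeq2's test 1, 0 and 1. The NDI1 calls were Per2 (log2 1.04 ± 0.23) and Cry2 (0.57 ± 0.16). Per2 was lost without replicate 1 (0.92) or replicate 2 (1.10), and Cry2 without replicate 2 (0.28) or replicate 3 (0.50). In LbNOX cells Per2 measured 6.91, 7.80 and 9.13 CPM with DMSO, above all luciferase DMSO samples (log2 0.73 ± 0.21, adjusted p = 0.056), and Cry2 was at 0.51 ± 0.15 (adjusted p = 0.061). With outer well as a covariate both were called (0.78 and 0.55).

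With piericidin few or no clock genes were called in these lines. In LbNOX cells 0 of 10 were called (8.87% of all genes) and in NDI1 cells 0 of 10 (0.00835%, 1 gene). An unadjusted p under 0.05 was found for 1 gene and 0 genes, and DESeq2 called 0 in both. In mitoLbNOX cells 1 of 10 was called (11.2%), Per1, at -0.52 ± 0.16 on the log2 scale, a call lost without any 1 of the replicate numbers (-0.61 to -0.42). Arntl with piericidin measured 10.1, 10.2 and 14.5 CPM in LbNOX cells, 11, 12.5 and 16.4 CPM in mitoLbNOX cells and 11.9 and 12 CPM in NDI1 cells, all below the lowest luciferase sample at 45.4 CPM. Cry2 ran from 7.57 to 9.81 CPM in LbNOX, from 9.22 to 10.2 CPM in mitoLbNOX and from 8.54 to 8.60 CPM in NDI1 cells, against 33.5 to 41.5 CPM in luciferase cells. Nr1d1 ran from 25.6 to 29.3 CPM over all 3 lines, against 6.50 to 9.07 CPM in luciferase cells. Nr1d2, though not called, measured 44.8, 53.4 and 57.9 CPM with piericidin in LbNOX cells, above its DMSO samples at 34.8, 37.8 and 38.7 CPM. Its mean was also higher with piericidin in mitoLbNOX cells (54.4 against 44.0 CPM) and NDI1 cells (51.3 against 42.9 CPM), where the samples overlapped. The test of the difference in response was called for 6 of the 10 genes with LbNOX (44.3% of all genes), 8 with mitoLbNOX (42.8%) and 7 with NDI1 (42.7%). For Arntl the difference was -2.11 ± 0.17, -1.91 ± 0.17 and -2.02 ± 0.19 on the log2 scale, for Cry2 -2.60 ± 0.21, -2.05 ± 0.21 and -2.66 ± 0.23, for Per2 -1.59 ± 0.29, -1.58 ± 0.30 and -2.08 ± 0.32, and for Nr1d1 1.52 ± 0.18, 1.63 ± 0.18 and 1.53 ± 0.20, in that order of lines. These tests share the luciferase samples.

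With antimycin, Arntl and Cry2 were called higher in mitoLbNOX cells and not in LbNOX cells. In LbNOX cells 4 of 10 clock genes were called (46.1% of all genes) and in mitoLbNOX cells 6 of 10 (47.7%). Cry2 with antimycin measured 8.78, 10.2 and 12.2 CPM in LbNOX cells, overlapping its DMSO samples (8.80, 10.7 and 10.9 CPM). In mitoLbNOX cells it rose from 6.30, 8.45 and 8.78 CPM to 21.2, 21.8 and 22.2 CPM (log2 1.51 ± 0.14). Arntl did likewise, at 10.3, 11.9 and 12.4 CPM with antimycin in LbNOX cells (log2 -0.15 ± 0.12, not called) and 20.2, 21.5 and 22.6 CPM in mitoLbNOX cells (0.74 ± 0.12). Per2 rose by 1.24 ± 0.20 and Cry1 by 1.07 ± 0.24 in mitoLbNOX cells. In LbNOX cells Cry1 rose by 0.80 ± 0.24, a call lost without replicate 2 (0.69) or replicate 3 (0.85), and Clock fell by 0.30 ± 0.08. Nr1d1, which rose with antimycin in luciferase cells, fell in both lines, by 0.52 ± 0.12 in LbNOX cells (not called without replicate 3, -0.38) and by 0.70 ± 0.12 in mitoLbNOX cells. Thra was not called in either (0.47 and 0.35). Dbp fell in LbNOX cells by 1.49 ± 0.40, from 3.03, 3.41 and 3.69 CPM to 0.482, 1.11 and 1.86 CPM, and in mitoLbNOX cells by 0.92 ± 0.37, the latter lost without replicate 1 (-0.81) or replicate 3 (-0.90). Sphk2 was not called in either (0.12 and 0.16). The response to antimycin differed from that of luciferase cells in 8 of 10 genes with LbNOX (51.5% of all genes) and 5 of 10 with mitoLbNOX (31.7%). It did for Nr1d1 (-1.40 ± 0.17 and -1.57 ± 0.17), Arntl (-2.65 ± 0.17 and -1.75 ± 0.16) and Per1 (-1.33 ± 0.22 and -1.54 ± 0.22) with both enzymes. For Cry2 it was -1.86 ± 0.21 with LbNOX, and with mitoLbNOX it was not called (-0.42, interval -0.82 to -0.02, adjusted p = 0.12). The difference between the LbNOX and mitoLbNOX responses was not itself tested.

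Oligomycin was tested in the LbNOX line only. There 2 of 10 clock genes were called (35.2% of all genes). Per3 fell from 7, 7.64 and 7.97 CPM to 2.16, 2.25 and 4.92 CPM (log2 -1.28 ± 0.36), a call lost without replicate 1 (-1.06). Its response was not called different from that of luciferase cells (0.25, interval -0.76 to 1.27). Per1 fell by 0.43 ± 0.16, a call lost without replicate 2 (-0.33) or replicate 3 (-0.26). Arntl (0.25 ± 0.12) and Cry2 (0.35 ± 0.14, 12.2 to 13.2 CPM against 8.80 to 10.9 CPM) were not called. The response differed between the lines for 2 of the 10 genes, beside 7.98% of all genes, with Arntl at -0.95 ± 0.17 and Cry2 at -1.0 ± 0.20. The Cry2 call was lost without replicate 2 (-0.94).

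**Figure D3:**
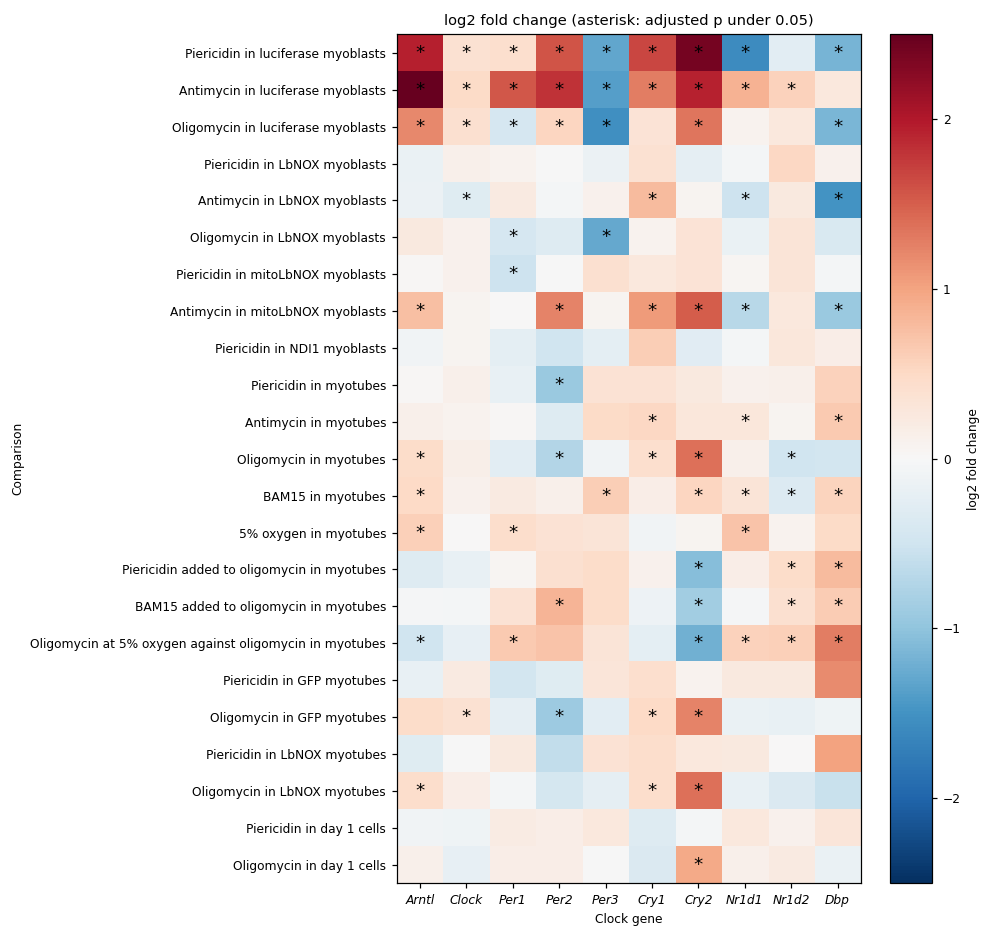
Log2 fold change of each clock gene (columns) for 23 treatments against their controls (rows), red for higher and blue for lower, with an asterisk for an adjusted p under 0.05. The Cry2 column is red in every oligomycin row, with no asterisk in LbNOX myoblasts, and blue where oligomycin with piericidin, with BAM15 or at 5% oxygen was compared with oligomycin alone.

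In untransduced myotubes, the clearest change was the rise of Cry2 with oligomycin. Piericidin gave 1 of 10 called (8.99% of all genes), Per2, which went from 5.06, 6.90 and 8.95 CPM to 2.99, 4.01 and 4.07 CPM (log2 -0.92 ± 0.29), a call lost without any 1 of the replicate numbers (-1.20 to -0.77). Antimycin gave 3 of 10 (12.9%): Cry1 (0.51 ± 0.16), Nr1d1 (0.29 ± 0.09) and Dbp (0.66 ± 0.20). The Nr1d1 and Dbp calls were lost without any 1 of the replicate numbers (0.22 to 0.32 and 0.49 to 0.76), the Cry1 call without replicate 2 (0.51) or 3 (0.45), and Thra rose by 0.58 beside Nr1d1. Arntl, which antimycin raised 5.64-fold in luciferase myoblasts, measured 13.2, 14.8 and 17.7 CPM in myotubes with antimycin and 11.5, 15.3 and 15.6 CPM with DMSO.

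Oligomycin gave 5 of 10 called (33.3% of all genes). Cry2 rose from 15.3, 16.5 and 16.6 CPM to 40.4, 40.9 and 44.3 CPM, 2.59-fold (log2 1.38 ± 0.13, adjusted p = 6.8e-09), and 3.23% of all genes changed as much. Nr1d2 fell from 41.1, 44.5 and 46.0 CPM to 28.3, 29.8 and 34.2 CPM (log2 -0.51 ± 0.08). Arntl rose by 0.46 ± 0.12 (not called without replicate 1, 0.24). Cry1 rose by 0.41 ± 0.16 and Per2 fell by 0.74 ± 0.28. These were lost without a replicate number (Cry1 0.30 to 0.50, Per2 -0.80 to -0.40) and with the replicate number as a block (0.41 and -0.73). The labels do not say whether replicate numbers pair the samples. Oligomycin also raised Cry2 in GFP myotubes, from 16.6 and 22.7 CPM to 46.0 and 47.7 CPM (log2 1.24 ± 0.17), in LbNOX myotubes, from 15.3, 20.0 and 20.1 CPM to 47.6, 48.6 and 48.9 CPM (1.37 ± 0.14), and in day 1 cells, from 10.5, 14 and 14.7 CPM to 24.1, 24.8 and 25.4 CPM (0.96 ± 0.14). In each of these the treated samples lay above all of their controls. The response of Cry2 in myotubes did not differ detectably from that in luciferase myoblasts (difference 0.03, interval -0.36 to 0.42), nor did that in day 1 cells (-0.36, interval -0.74 to 0.03).

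Cry2 was lower than with oligomycin alone in all 3 groups that combined oligomycin with another condition. Piericidin and BAM15 were given together with oligomycin, whereas low oxygen preceded it. Cry2 measured 17.7, 19.9 and 23.1 CPM with piericidin added (log2 change against oligomycin -1.06 ± 0.13), 20.9, 23.0 and 25.5 CPM with BAM15 added (-0.86 ± 0.12) and 15.3, 16.4 and 22.2 CPM at 5% oxygen (-1.21 ± 0.13). All 9 samples lay below the lowest oligomycin sample at 40.4 CPM. Nr1d2 moved the other way in the same 3 comparisons (0.47 ± 0.08, 0.41 ± 0.08 and 0.60 ± 0.08), and so did Dbp (0.79 ± 0.21, 0.63 ± 0.21 and 1.28 ± 0.21), with Sphk2 at -0.71, -0.81 and -0.86 beside Dbp. The Dbp calls with piericidin and BAM15 were lost without a replicate number, at 0.69 to 0.85 and 0.57 to 0.67, and Dbp at 5% oxygen rose from 2.29, 3.07 and 3.25 CPM to 5.05, 7.28 and 8.30 CPM. In all, 3 of 10 genes were called with piericidin added (20.9% of all genes), 4 with BAM15 added (26.1%) and 6 at 5% oxygen (33.3%). The fourth gene with BAM15 was Per2 (0.84 ± 0.28), lost without replicate 1 (0.82) or replicate 2 (0.50). At 5% oxygen Per1 (0.66 ± 0.17) and Nr1d1 (0.57 ± 0.09) were also higher and Arntl lower (-0.49 ± 0.13, not called without replicate 1, -0.40). These comparisons share the oligomycin samples. The stress response gene Atf3 moved with Cry2, by 5.62 with oligomycin and by -3.43, -3.35 and -3.61 in the 3 combinations on the log2 scale. Its part in the Cry2 values was not tested.

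**Figure D4:**
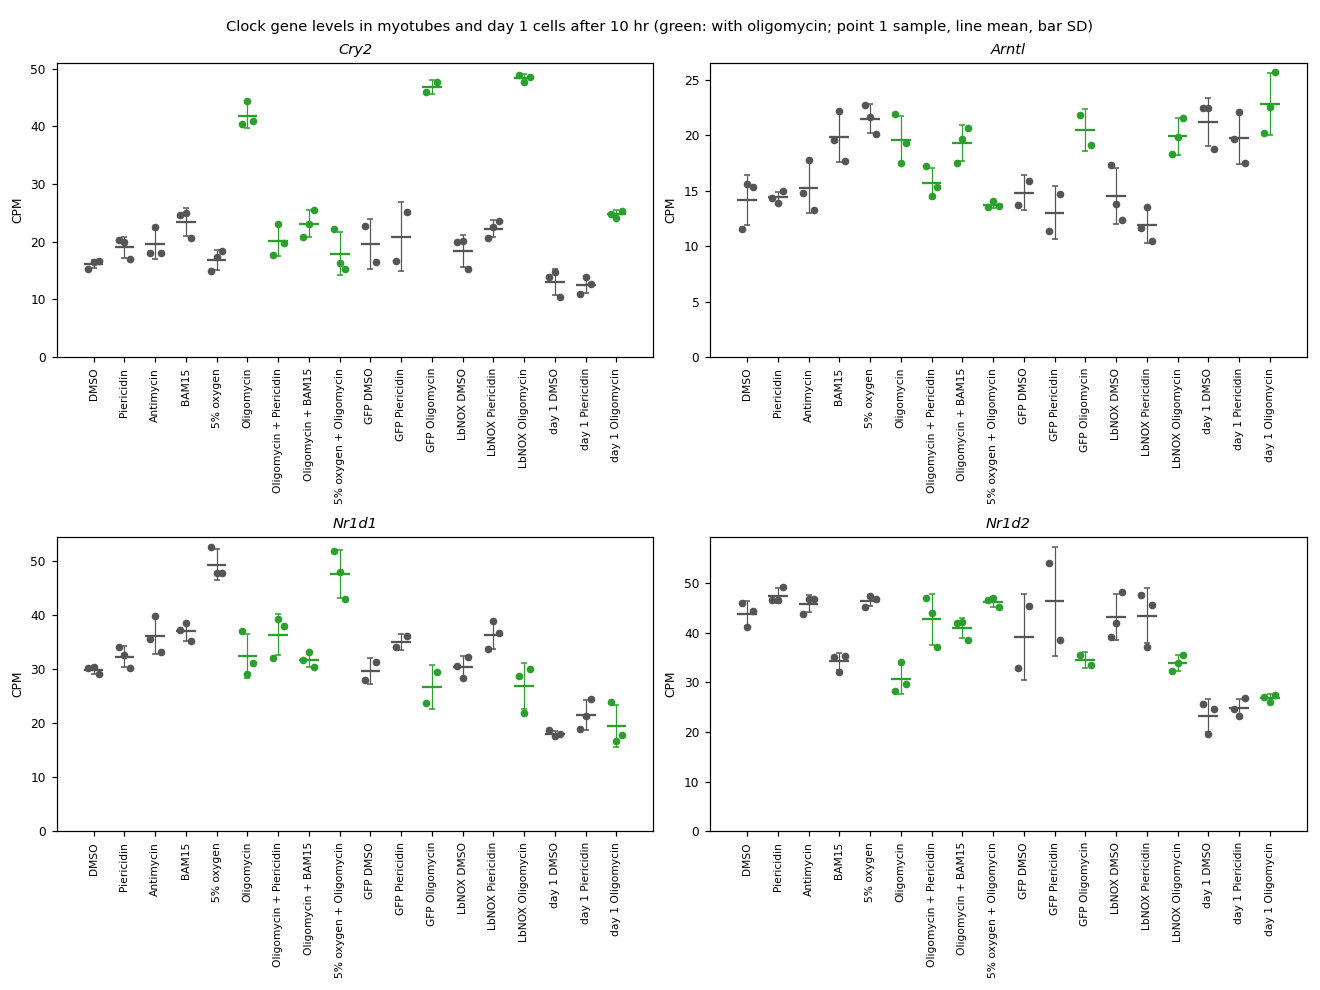
Levels of Cry2, Arntl, Nr1d1 and Nr1d2 (vertical axes, CPM) in every myotube and day 1 sample, by group along the horizontal axes, with a line at the group mean and a bar for the SD, green where oligomycin was present. Cry2 was at 40.4 CPM or above in myotubes with oligomycin alone and at 25.5 CPM or below in all other myotube groups.

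BAM15 alone gave 6 of 10 called (25.4% of all genes). Cry2 rose from 15.3 to 16.6 CPM with DMSO to 20.7, 24.7 and 25.0 CPM (log2 0.54 ± 0.13, not called without replicate 2, 0.50), and Nr1d2 fell by 0.35 ± 0.08. Arntl (0.49 ± 0.12), Per3 (0.61 ± 0.19), Nr1d1 (0.32 ± 0.09) and Dbp (0.55 ± 0.20) rose, each lost without some replicate number (lowest 0.36, 0.30, 0.29 and 0.35). At 5% oxygen with DMSO, an exposure begun before the treatment, 3 of 10 were called (22.1%). Nr1d1 rose from 29.1, 30.2 and 30.4 CPM to 47.8, 47.8 and 52.7 CPM (log2 0.72 ± 0.09), the highest group mean of Nr1d1 among all 31 groups, with Thra at 0.28 and not called. Arntl rose from 11.5, 15.3 and 15.6 CPM to 20.1, 21.6 and 22.7 CPM (0.60 ± 0.12, not called without replicate 1, 0.41), and Per1 was at 0.45 ± 0.16, lost without any 1 of the replicate numbers (0.37 to 0.49). The proliferation marker Mki67 fell by 2.61 on the log2 scale at 5% oxygen, and its part was not tested. The response to oligomycin differed between the oxygen levels in 3 of the 10 genes (17.4% of all genes), Arntl (-1.09 ± 0.18), Cry2 (-1.27 ± 0.19) and Nr1d2 (0.51 ± 0.11, not called without replicate 1, 0.41).

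In transduced myotubes, LbNOX against GFP without inhibitor gave 0 of 10 called (0.0242% of all genes, 3 genes), piericidin 0 of 10 in GFP (3.09%) and 0 of 10 in LbNOX myotubes (6.78%). An unadjusted p under 0.05 was found for 0, 2 and 4 clock genes, and DESeq2 called 0, 0 and 1. Dbp with piericidin was at 1.18 ± 0.35 in GFP and 1.00 ± 0.29 in LbNOX myotubes (adjusted p = 0.098 and 0.051). Oligomycin gave 4 of 10 in GFP myotubes (25.9%) and 3 of 10 in LbNOX myotubes (32%). Besides Cry2, Cry1 rose in both (0.49 ± 0.17 and 0.44 ± 0.14), Arntl in LbNOX myotubes (0.44 ± 0.15), and in GFP myotubes Clock rose (0.39 ± 0.12) and Per2 fell (-0.91 ± 0.29). All of these but Cry2 were lost when a replicate number was left out, with Cry1 at 0.33 to 0.65 and 0.39 to 0.48, Arntl at 0.28 to 0.41, Clock at 0.31 to 0.45 and Per2 at -0.91 to -0.90. The response of the 10 genes to piericidin or oligomycin was not called different between LbNOX and GFP myotubes (0 of 10 each, with 0% of all genes called; unadjusted p under 0.05 for 1 and 0, DESeq2 0 and 0). For Cry2 with oligomycin that difference was 0.13, with an interval of -0.31 to 0.57. Day 1 cells gave 0 of 10 called with piericidin (2.75% of all genes; 0 by unadjusted p and 0 by DESeq2) and 1 of 10 with oligomycin, Cry2 (20.7%).

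The difference in response between luciferase myoblasts and the later stages was tested. With piericidin it was called for 8 of 10 clock genes in myotubes (46.5% of all genes) and 8 of 10 in day 1 cells (46.6%). With antimycin it was called for 8 of 10 in myotubes (47.9%), and with oligomycin for 4 of 10 in myotubes (29%) and 4 of 10 in day 1 cells (24.9%). Arntl and Per3 were among them each time. The Arntl difference, later stage minus myoblasts, was -1.87 ± 0.18 with piericidin, -2.33 ± 0.18 with antimycin and -0.74 ± 0.18 with oligomycin in myotubes, the last not called without replicate 2 (-0.63). Per3 differed by 1.73 ± 0.40, 1.90 ± 0.40 and 1.44 ± 0.40, the last not called without replicate 1 (1.40). Nr1d1 differed by 1.73 ± 0.20 with piericidin in myotubes and by 1.88 ± 0.20 in day 1 cells.

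Among 22 other clock genes, a list also drawn up with earlier results known, those tested in luciferase myoblasts were 17. With piericidin 7 rose and 5 fell, with antimycin 10 rose and 4 fell, and with oligomycin 6 rose and 6 fell, beside 61.7%, 63.2% and 50.8% of all genes called. Of the E-box repressors, Ciart rose by 3.77, 3.81 and 2.02 on the log2 scale in that order. Bhlhe40 rose by 0.50, 2.06 and 0.60. Nfil3, which represses through D-boxes, rose by 3.92, 4.22 and 2.74, while Tef, which activates through them, fell by 0.69, 0.57 and 0.47. Rora, which activates Arntl, rose by 1.82 with piericidin and 1.82 with antimycin and was not called with oligomycin (0.61). Arntl2, a paralog of Arntl, fell by 0.89, 0.92 and 1.58. Of 5 tested genes that cAMP or glucocorticoid signals induce, chosen in the same way, 3 rose and 1 fell with piericidin, 3 rose and 0 fell with antimycin, and 1 rose and 0 fell with oligomycin. Tsc22d3, which glucocorticoids induce, rose by 2.84, 2.96 and 1.01, and Sik1, a kinase gene that cAMP induces, by 1.11 and 1.98 with piericidin and antimycin. In myotubes with oligomycin, 6 of 18 other clock genes tested rose and 4 fell (33.3% of all genes called), with Ciart up by 2.25 and Nfil3 by 0.93.

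The 10 genes were also compared by their condition means of log2 CPM over the 31 conditions, centered within the 4 cell backgrounds. These correlations are a description, since conditions share controls and libraries. Among the 10 genes, Arntl and Cry2 were most alike (Pearson r = 0.80), followed by Per1 and Per2 (0.69) and Cry1 and Cry2 (0.68). Many genes outside the clock were nearer. Of 13305 genes, Cry2 ranked 458 in likeness to Arntl, Per2 ranked 154 to Per1, and Cry2 ranked 437 to Cry1. Per3 ran opposite to Arntl (-0.78) and Cry2 (-0.64). Nr1d1 was like Dbp (0.65) and Nr1d2 (0.56) and had r = -0.19 with Arntl. Over all 31 conditions the genes nearest to Cry2 were Ppp1r15a (0.97), Atf3 (0.96) and Gpat3 (0.96), those nearest to Arntl were Usf1 (0.95), Trit1 (0.94) and Usp22 (0.94), and those nearest to Per1 were Jun (0.90), Csrnp1 (0.88) and Dusp10 (0.86). The nearest gene to Nr1d1 was Cav1 (0.79), and to Nr1d2 it was Fgfr4 (0.73).

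**Figure D5:**
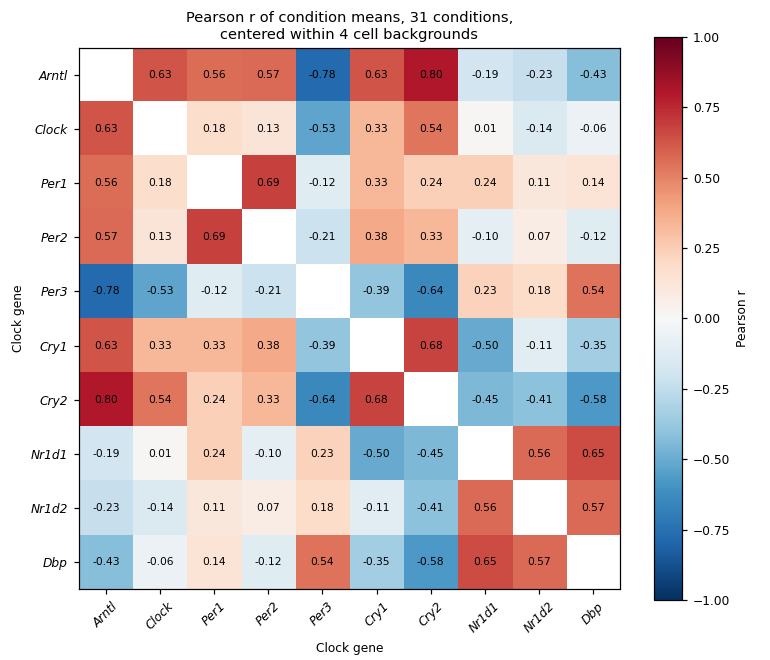
Pearson r between the clock genes (rows and columns) of their condition means of log2 CPM over 31 conditions, centered within 4 cell backgrounds, red for alike and blue for opposite. Arntl, Cry1 and Cry2 form the red block (0.63 to 0.80), Per3 is opposite to Arntl (-0.78), and Dbp, Nr1d1 and Nr1d2 are alike (0.56 to 0.65). Within the red block no gene ranks nearer to another than 437 of 13305 genes.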

How the data were processed

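RNA from C2C12 cells was profiled by Smart-seq2, which amplifies polyadenylated RNA without keeping the strand. Per the labels, reads were demultiplexed with bcl2fastq 2.20.0.422 and quantified with kallisto 0.44 against mouse Ensembl transcripts (GRCm38) with the transgenes added, as the study's methods state. The deposited table holds the authors' estimated counts per gene, summed over transcripts and written as whole numbers, not normalized. The 10 genes and all lists were chosen with earlier results of these data known, and the rule names every clock gene of the list.

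A gene entered a fit if some group of that fit held 16 or more counts in each of its samples, and was tested with edgeR 4.0.16 (R 4.3.3) by glmQLFit and glmQLFTest with TMM factors, in 5 fits (myoblasts, untransduced myotubes, transduced myotubes, day 1 cells, and states together), for 47 comparisons. Adjusted p-values are Benjamini-Hochberg values over all genes of a comparison, with 0.05 as the threshold, and the SE was derived from the F statistic. Intervals are 95% intervals, the log2 difference ± 1.96 SE. CPM values use 1 set of TMM factors over the 88 samples. Exon lengths and overlaps are from GENCODE mouse release 21 (GRCm38). The test was checked on simulated data. With 3 against 3 samples an exact permutation test cannot go below p = 0.1, so none is given. Alternatives were DESeq2 1.42.0 size factors and Wald test, no count filter, a replicate block, only the groups compared, outer well as a covariate, and leaving out each replicate number. No pair of replicates was identical (83 pairs). Of the value columns, 0 were left unmapped.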

Additional observations from a re-analysis of the deposited data

Results flagged for a closer look

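The response of a clock gene to an inhibitor differed between cell lines, states or oxygen levels in 71 of 140 tests of the difference itself, of which 45 kept the call under every alternative (the interaction term of edgeR's quasi-likelihood fit, adjusted p under 0.05). Values are differences of log2 changes, other line, state or oxygen level minus its reference, which is luciferase myoblasts, for oxygen myotubes not kept at 5% oxygen, and for LbNOX in transduced myotubes, where 0 tests were called, GFP myotubes. In the same 14 comparisons the share of all genes called ran from 0% to 51.5%. The tests share control samples, so they are not independent of each other. Groups of 2 or 3 samples were not screened for outlying samples.

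Arntl differed by -2.11 for piericidin with LbNOX, -2.65 for antimycin with LbNOX, -0.95 for oligomycin with LbNOX, -1.91 for piericidin with mitoLbNOX, -1.75 for antimycin with mitoLbNOX, -2.02 for piericidin with NDI1, -1.09 for oligomycin at 5% oxygen in myotubes, -1.87 for piericidin in myotubes, -2.33 for antimycin in myotubes, -0.74 for oligomycin in myotubes, -1.98 for piericidin in day 1 cells and -1.03 for oligomycin in day 1 cells. The Arntl call for oligomycin in myotubes was lost without replicate 2 (-0.63).

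Per2 differed by -1.59 for piericidin with LbNOX, -1.85 for antimycin with LbNOX, -1.58 for piericidin with mitoLbNOX, -2.08 for piericidin with NDI1, -2.45 for piericidin in myotubes, -2.08 for antimycin in myotubes, -1.28 for oligomycin in myotubes and -1.36 for piericidin in day 1 cells. The Per2 call for oligomycin in myotubes was lost without replicate 1 (-0.58).

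Cry1 differed by -1.29 for piericidin with LbNOX, -1.41 for piericidin with mitoLbNOX, -1.07 for piericidin with NDI1, -1.27 for piericidin in myotubes and -1.95 for piericidin in day 1 cells. The Cry1 call for piericidin with NDI1 was lost with only the groups compared (-1.03), without replicate 1 (-0.03) and without replicate 3 (-1.09). The Cry1 call for piericidin in myotubes was lost without replicate 1 (-1.02).

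Cry2 differed by -2.60 for piericidin with LbNOX, -1.86 for antimycin with LbNOX, -1.0 for oligomycin with LbNOX, -2.05 for piericidin with mitoLbNOX, -2.66 for piericidin with NDI1, -1.27 for oligomycin at 5% oxygen in myotubes, -2.10 for piericidin in myotubes, -1.59 for antimycin in myotubes and -2.38 for piericidin in day 1 cells. The Cry2 call for oligomycin with LbNOX was lost without replicate 2 (-0.94).

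Nr1d1 differed by 1.52 for piericidin with LbNOX, -1.40 for antimycin with LbNOX, 1.63 for piericidin with mitoLbNOX, -1.57 for antimycin with mitoLbNOX, 1.53 for piericidin with NDI1, 1.73 for piericidin in myotubes, -0.54 for antimycin in myotubes and 1.88 for piericidin in day 1 cells. The Nr1d1 call for antimycin in myotubes was lost without replicate 3 (-0.51).

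Nr1d2 differed by 0.78 for piericidin with LbNOX, 0.51 for oligomycin at 5% oxygen in myotubes, -0.46 for antimycin in myotubes and -0.77 for oligomycin in myotubes. The Nr1d2 call for piericidin with LbNOX was lost without replicate 2 (0.75). The Nr1d2 call for oligomycin at 5% oxygen in myotubes was lost without replicate 1 (0.41). The Nr1d2 call for antimycin in myotubes was lost with outer well as a covariate (-0.20), without replicate 1 (-0.47) and without replicate 3 (-0.36). The Nr1d2 call for oligomycin in myotubes was lost with outer well as a covariate (-0.49) and without replicate 3 (-0.45).

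Clock differed by -0.79 for antimycin with LbNOX, -0.27 for piericidin with mitoLbNOX, -0.42 for antimycin with mitoLbNOX, -0.30 for piericidin with NDI1, -0.34 for antimycin in myotubes, -0.44 for piericidin in day 1 cells and -0.58 for oligomycin in day 1 cells. The Clock call for piericidin with mitoLbNOX was lost with no count filter (-0.27), with only the groups compared (-0.28), without replicate 1 (-0.32), without replicate 2 (-0.24) and without replicate 3 (-0.16). The Clock call for antimycin with mitoLbNOX was lost without replicate 1 (-0.40). The Clock call for piericidin with NDI1 was lost with no count filter (-0.31), with only the groups compared (-0.26), without replicate 1 (-0.36) and without replicate 2 (-0.08). The Clock call for antimycin in myotubes was lost with no count filter (-0.33), with outer well as a covariate (-0.31), without replicate 1 (-0.39) and without replicate 3 (-0.27). The Clock call for piericidin in day 1 cells was lost without replicate 1 (-0.44) and without replicate 3 (-0.38).

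Per1 differed by -1.33 for antimycin with LbNOX, -0.94 for piericidin with mitoLbNOX, -1.54 for antimycin with mitoLbNOX, -0.66 for piericidin with NDI1, -0.56 for piericidin in myotubes, -1.48 for antimycin in myotubes and 0.62 for oligomycin in day 1 cells. The Per1 call for piericidin with NDI1 was lost with no count filter (-0.67), without replicate 1 (-0.43), without replicate 2 (-0.88) and without replicate 3 (-0.54). The Per1 call for piericidin in myotubes was lost with no count filter (-0.58), with only the groups compared (-0.56), without replicate 1 (-0.49) and without replicate 3 (-0.47). The Per1 call for oligomycin in day 1 cells was lost with DESeq2 size factors (0.58), with no count filter (0.61), with the DESeq2 Wald test (0.57), with only the groups compared (0.62), with outer well as a covariate (0.55), without replicate 1 (0.57), without replicate 2 (0.70) and without replicate 3 (0.44).

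Per3 differed by 1.48 for antimycin with LbNOX, 1.71 for piericidin with mitoLbNOX, 1.45 for antimycin with mitoLbNOX, 1.73 for piericidin in myotubes, 1.90 for antimycin in myotubes, 1.44 for oligomycin in myotubes, 1.61 for piericidin in day 1 cells and 1.56 for oligomycin in day 1 cells. The Per3 call for antimycin with LbNOX was lost without replicate 1 (1.68). The Per3 call for piericidin with mitoLbNOX was lost without replicate 1 (adjusted p = 0.052). The Per3 call for antimycin with mitoLbNOX was lost without replicate 1 (1.67) and without replicate 3 (0.88). The Per3 call for oligomycin in myotubes was lost with outer well as a covariate (1.33) and without replicate 1 (1.40). The Per3 call for oligomycin in day 1 cells was lost without replicate 1 (1.45) and without replicate 3 (1.22).

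Dbp differed by -1.75 for antimycin with LbNOX, 1.78 for piericidin in myotubes and 1.52 for piericidin in day 1 cells. The Dbp call for antimycin with LbNOX was lost without replicate 1 (-1.67). The Dbp call for piericidin in myotubes was lost without replicate 2 (1.07) and without replicate 3 (1.99). The Dbp call for piericidin in day 1 cells was lost with only the groups compared (1.51), without replicate 1 (1.84), without replicate 2 (1.04) and without replicate 3 (1.73).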

How the results depend on the processing

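Of 184 member results past the threshold among 470, 110 stayed past it under every alternative run, and 0 changed sign. The losses were most frequent when replicate 1, 2 or 3 was left out (51, 45 and 42 results), and without replicate 1 or 2 the NDI1 and GFP arms keep 1 sample that is assumed to vary like the other groups. Counts below are clock genes called, with the count of the fit as reported in parentheses, and the cause was not tested. With no count filter the counts were 1 for piericidin in LbNOX myoblasts (0), 1 for piericidin in NDI1 myoblasts (0), 1 for NDI1 baseline in myoblasts (2), 1 for antimycin in myotubes (3), 2 for piericidin in LbNOX myotubes (0), 3 for myotubes against luciferase myoblasts (5). With only the groups compared the counts were 1 for piericidin in LbNOX myoblasts (0), 1 for oligomycin in LbNOX myoblasts (2), 0 for piericidin in mitoLbNOX myoblasts (1), 1 for NDI1 baseline in myoblasts (2), 1 for antimycin in myotubes (3), 2 for BAM15 added to oligomycin in myotubes (4), 2 for oligomycin in GFP myotubes (4). With the DESeq2 Wald test the counts were 1 for oligomycin in LbNOX myoblasts (2), 1 for LbNOX baseline in myoblasts (0), 1 for NDI1 baseline in myoblasts (2), 1 for antimycin in myotubes (3), 2 for oligomycin in GFP myotubes (4), 1 for piericidin in LbNOX myotubes (0). With outer well as a covariate the counts were 4 for oligomycin in LbNOX myoblasts (2), 2 for LbNOX baseline in myoblasts (0), 0 for piericidin in myotubes (1), 2 for piericidin in LbNOX myotubes (0), 2 for oligomycin by state interaction, myotubes against myoblasts (4). With the replicate block the counts were 1 for NDI1 baseline in myoblasts (2), 0 for piericidin in myotubes (1), 3 for oligomycin in myotubes (5). With DESeq2 size factors the counts were 1 for piericidin in LbNOX myotubes (0). Without 1 replicate number the counts ranged from 4 to 5 for oligomycin in luciferase myoblasts (7), from 2 to 4 for antimycin in LbNOX myoblasts (4), from 1 to 2 for oligomycin in LbNOX myoblasts (2), from 0 to 0 for piericidin in mitoLbNOX myoblasts (1), from 0 to 1 for NDI1 baseline in myoblasts (2), from 1 to 2 for oligomycin by LbNOX interaction in myoblasts (2), from 3 to 5 for antimycin by mitoLbNOX interaction in myoblasts (5), from 0 to 0 for piericidin in myotubes (1), from 0 to 1 for antimycin in myotubes (3), from 2 to 4 for oligomycin in myotubes (5), from 1 to 4 for BAM15 in myotubes (6), from 1 to 2 for 5% oxygen in myotubes (3), from 2 to 3 for BAM15 added to oligomycin in myotubes (4), from 1 to 4 for oligomycin in GFP myotubes (4), from 1 to 2 for oligomycin in LbNOX myotubes (3), from 2 to 4 for myotubes against luciferase myoblasts (5), from 2 to 3 for myotubes against day 1 cells (4), from 5 to 8 for antimycin by state interaction, myotubes against myoblasts (8), from 2 to 3 for oligomycin by state interaction, myotubes against myoblasts (4), from 2 to 3 for oligomycin by state interaction, day 1 cells against myoblasts (4). The labels do not say that replicate numbers pair the samples. Deviations from group means of same-numbered samples correlated by -0.0413 to 0.0537 on average over the 5 fits, and the replicate block moved no other count by more than 1.5 times. In the myoblast fit, 71 of 211 same-numbered pairs were above 0.1, the highest at 0.329. The mean there was 0.0337 for same and -0.0169 for different numbers. An average cannot exclude pairing within part of the samples. The outer well covariate could not be fitted for piericidin and oligomycin against DMSO within day 1 cells and was not run there. Depth limits Dbp most, at 2 to 98 counts per sample. Per3 came next by its lowest sample (6 to 243, median 95.5) and Per2 by its median (69.5, from 25 to 156).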
